A study of Mus musculus with 9 samples.

Results

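Mitochondria join by fusion, divide by fission, and are removed piecewise by mitophagy, and 10 mouse genes of this machinery are described here in ovarian granulosa cells, which envelop the oocyte in the follicle and support its growth. The genes are taken by name, from a list drawn up with earlier results of these data known. They are the mitophagy genes Pink1, Bnip3, Bnip3l and Fundc1, the fusion genes Opa1, Mfn1 and Mfn2, the fission genes Dnm1l and Fis1, and the outer-membrane channel Vdac1. All 10 were found by symbol among the 56748 Ensembl identifiers of the deposited expression table, and all 10 were among the 14431 genes expressed highly enough to be tested.

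The libraries came from wild-type female C57BL/6 mice in 3 groups of 3. CTX_HCQ mice received cyclophosphamide, an alkylating chemotherapy drug that damages ovarian follicles, by injection at 120 mg per kg, and daily oral hydroxychloroquine, 40 mg per kg, which began 7 days ahead of the injection and went on for 4 weeks afterwards. CTX mice received the same dose of cyclophosphamide without hydroxychloroquine, and stand as a model of premature ovarian failure. Control mice are called vehicle-treated in the design text and untreated in the sample labels. Hydroxychloroquine raises lysosomal pH and so blocks the last step of autophagy, in which lysosomes digest what autophagosomes deliver. The sources used here give neither the age of the mice nor whether a library held the cells of 1 mouse or of several, so the spread that the p-values rest on is that between libraries and could be partly technical.

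As background, the mitofusins Mfn1 and Mfn2 are GTPases that join outer membranes, and Opa1 joins inner membranes and shapes cristae. The dynamin-like GTPase encoded by Dnm1l is recruited from the cytosol by outer-membrane adaptors and constricts the organelle. Mitophagy follows either the kinase Pink1, which builds up on depolarised mitochondria and phosphorylates ubiquitin there, or receptors in the outer membrane that bind LC3-family proteins directly, among them Bnip3, Bnip3l and Fundc1. Bnip3 is a textbook target of the hypoxia-inducible factor. Transcript levels do not measure the proteins' activity or the flux of mitophagy.

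Because Bnip3 was the gene of the set that varied most between libraries, its promoter window is shown beside those of Ldha, Pgk1 and Pdk1, enzymes of glycolysis and its control that varied with it. These 3 comparison genes were picked with their values known. Each window runs from 250 bases before to 50 bases after a RefSeq transcription start on GRCm38.p6 and is printed in the direction of transcription, with ACGTG, the core of the hypoxia response element, in capitals on either strand. The Bnip3 window lies at chr7:138909457-138909756 on the minus strand, that of Ldha at chr7:46845554-46845853 on the plus strand, that of Pgk1 at chrX:106186850-106187149 on the plus strand, and that of Pdk1 at chr2:71872974-71873273 on the plus strand.
Bnip3: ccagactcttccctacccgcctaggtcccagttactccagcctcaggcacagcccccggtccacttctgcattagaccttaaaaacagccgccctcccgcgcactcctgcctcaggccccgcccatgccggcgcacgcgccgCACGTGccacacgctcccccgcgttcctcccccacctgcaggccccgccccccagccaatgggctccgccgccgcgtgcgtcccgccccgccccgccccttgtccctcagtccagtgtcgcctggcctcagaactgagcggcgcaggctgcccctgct
Ldha: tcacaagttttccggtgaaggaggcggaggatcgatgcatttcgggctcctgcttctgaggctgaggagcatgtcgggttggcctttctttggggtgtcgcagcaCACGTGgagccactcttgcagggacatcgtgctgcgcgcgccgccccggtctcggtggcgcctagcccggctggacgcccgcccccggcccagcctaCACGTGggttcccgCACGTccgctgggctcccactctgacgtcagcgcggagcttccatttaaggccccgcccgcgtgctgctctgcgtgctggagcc
Pgk1: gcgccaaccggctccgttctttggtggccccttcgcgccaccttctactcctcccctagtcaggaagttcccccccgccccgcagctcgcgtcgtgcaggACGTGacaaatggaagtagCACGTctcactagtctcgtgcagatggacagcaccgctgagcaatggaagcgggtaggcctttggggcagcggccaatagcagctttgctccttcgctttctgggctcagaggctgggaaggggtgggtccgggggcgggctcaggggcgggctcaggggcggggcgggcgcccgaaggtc
Pdk1: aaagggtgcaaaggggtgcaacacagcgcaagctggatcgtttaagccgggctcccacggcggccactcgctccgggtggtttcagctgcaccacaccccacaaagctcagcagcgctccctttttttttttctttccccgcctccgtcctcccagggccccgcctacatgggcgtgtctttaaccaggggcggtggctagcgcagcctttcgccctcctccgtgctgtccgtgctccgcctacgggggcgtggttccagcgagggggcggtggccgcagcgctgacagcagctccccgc
The Bnip3 window holds 1 CACGTG, which reads ACGTG on both strands and is at the same time an E-box, with its first base at position -108 from the start site. The Ldha window holds 5 matches counted on both strands, which include 2 such CACGTG palindromes, the Pgk1 window holds 2 separate matches, and the Pdk1 window holds none. Ldha and Pdk1 each have another window in the table, not printed, and neither of those holds a match. The core ACGTG was present in 19.6% of the 32851 windows of 300 bases in the RefSeq table. By the same count on both strands, in which each CACGTG gives 2 matches, 8.21% held 2 or more. The palindrome CACGTG itself was present in 7.15% of the windows. Of the 10 genes, 9 had a window in the table, 14 windows in all, and 4 of the 14, belonging to Bnip3, Mfn2 and Vdac1, held ACGTG. The matching Mfn2 windows overlap and hold the same 1 site, at -2 and -39 from their start sites. A match is a description of the letters and not evidence of a bound factor, and a window without one says nothing about the rest of the locus.

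Levels are given as FPKM, fragment counts scaled to exon length and to a size set for each library, which allows comparison between genes. Averaged over the 9 libraries, Vdac1 had the highest level at 95.4 FPKM and stood above Bnip3, the next, in 9 of 9 libraries. Bnip3 followed at 47.7, Fis1 at 40.7 and Pink1 at 39.8 FPKM, but Bnip3 exceeded Fis1 in 3 of 9 libraries and Fis1 exceeded Pink1 in 5 of 9, so these neighbours were not ordered consistently. Below them, Bnip3l averaged 27.7, Dnm1l 18.0, Fundc1 16.4, Mfn1 13.2, Mfn2 12.1 and Opa1 11.3 FPKM. Pink1 exceeded Bnip3l in 8 of 9 libraries and Bnip3l exceeded Dnm1l in 8 of 9, whereas the neighbours from Dnm1l down to Opa1 kept their order in 6 or 7 of 9 only. The order among the group means was led by Vdac1 in all 3 groups. The lowest read count recovered for any of the 10 genes in a library was 484, for Fundc1, and the highest was 5109, for Vdac1.

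**Figure D1:**
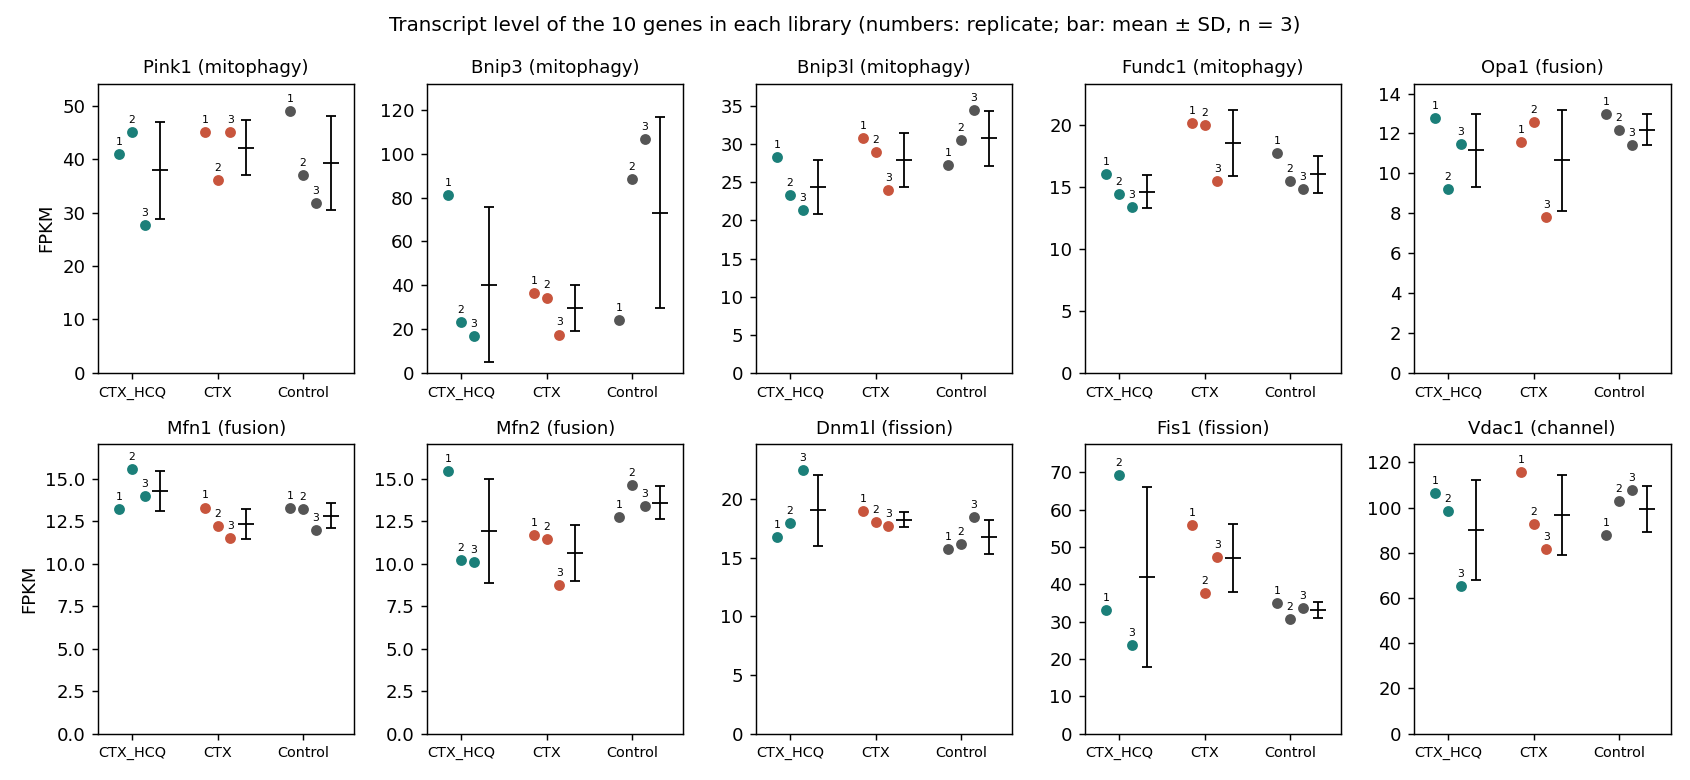
FPKM of each of the 10 genes in every library, in CTX_HCQ, CTX and Control from left to right, with 1 point per library numbered by replicate and a bar for the mean ± SD of 3 libraries. Bnip3 ranges from 16.8 to 107 FPKM, with its highest points in CTX_HCQ 1, Control 2 and Control 3, whereas Mfn1 ranges only from 11.5 to 15.6 FPKM.

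The tissue and the libraries bear on how these values are read. All 12 granulosa markers examined were expressed in every library, with Foxl2 at 67.8 to 104 FPKM and Amh at 172 to 540 FPKM. CTX_HCQ 3 had the fewest recovered reads, 13892303, and Control 2 the most, 17746834. The library size behind the FPKM, worked out from the values themselves, was 15344525 in CTX_HCQ 3. In CTX 1 it was 16820966, below the 17287161 reads recovered there, so it was not a plain total of reads. How it was set is not stated. Transcripts of the mitochondrial genome made up 28.9% of all FPKM in CTX 3, against 11.7% to 17.5% in the other 8 libraries. Summed over 8 markers, oviduct and motile-cilia transcripts reached 12.6 to 20.3 FPKM in CTX_HCQ, 75.8 to 388 FPKM in CTX and 6.36 to 81.6 FPKM in Control, with Ovgp1 the most abundant of them in CTX at 44.4 to 339 FPKM. In such bulk libraries, fewer cells of one type and less RNA per cell cannot be told apart, and what part these markers have in any difference below was not tested.

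In none of the 3 comparisons did any of the 10 genes pass the threshold (limma on log2(FPKM + 1), Benjamini-Hochberg adjusted p under 0.05 over all 14431 tested genes). The same held for all tested genes, with 0% called in each comparison. At an unadjusted p under 0.05, there were 1126 tested genes (7.8%) for CTX against Control, 785 (5.44%) for CTX_HCQ against CTX and 312 (2.16%) for CTX_HCQ against Control, and 0 of the 10 genes were among them. Fitted to whole reads recovered from the FPKM with limma voom, the comparisons likewise gave 0 calls, with 1134 (7.86%), 750 (5.2%) and 293 (2.03%) genes at an unadjusted p under 0.05 and 0 of the 10 among them. By sign alone, 4 of the 10 genes were higher in CTX than in Control, 5 were higher in CTX_HCQ than in CTX and 3 were higher in CTX_HCQ than in Control, against 49.5%, 52.1% and 48.1% of all tested genes. With library weights, limma called 648 genes for CTX against Control and 1 in each of the other comparisons, and without Control 1 it called 13 for CTX against Control and 10 for CTX_HCQ against CTX, none of the 10 genes among them. The median width of the 95% interval of a difference was 0.90 on the log2 scale over the 10 genes. A p above the threshold therefore does not show that the levels were equal.

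**Figure D2:**
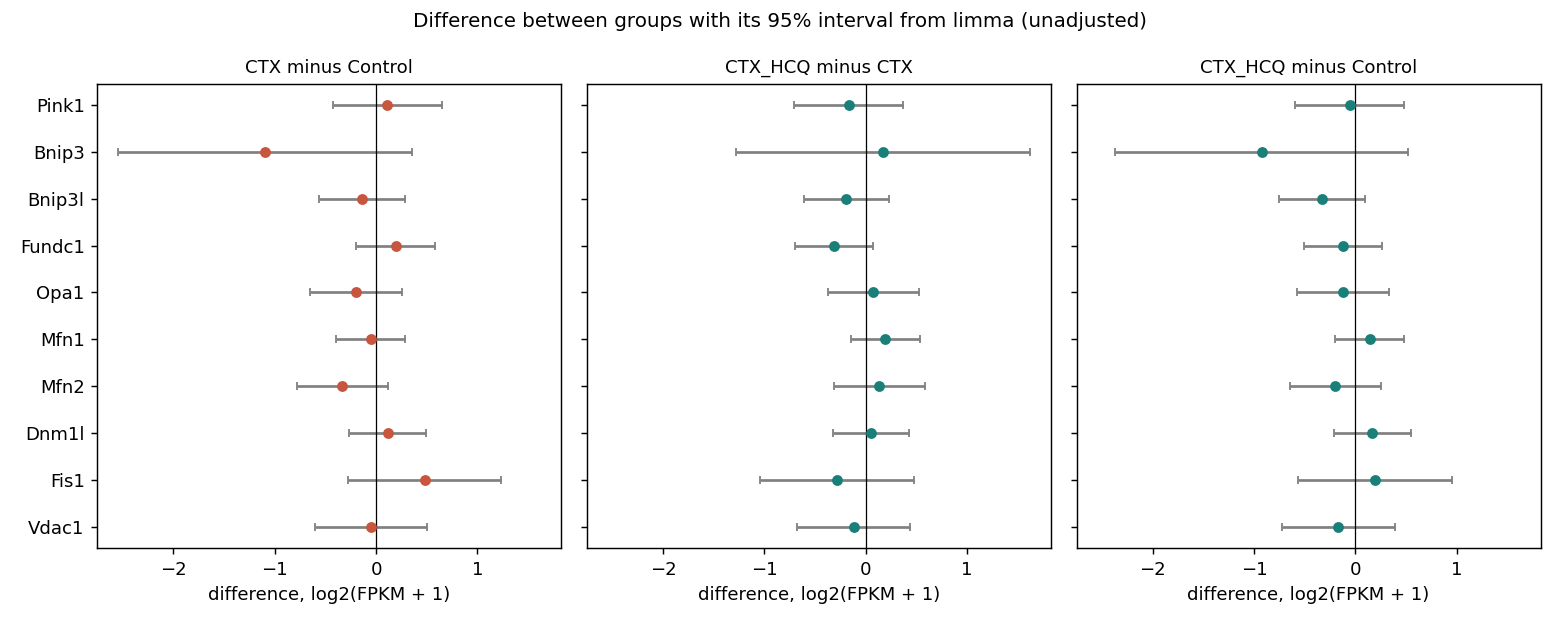
Difference of the group means on the log2(FPKM + 1) scale for the 10 genes, with unadjusted 95% intervals from limma, for CTX minus Control, CTX_HCQ minus CTX and CTX_HCQ minus Control from left to right. Every interval includes 0, and the widest is that of Bnip3, from -2.54 to 0.35 in CTX minus Control.

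Bnip3 (ENSMUSG00000078566), the hypoxia-inducible mitophagy receptor, was measured at 81.0, 23.2 and 16.8 FPKM in the CTX_HCQ libraries, at 36.7, 34.4 and 17.5 FPKM in the CTX libraries and at 24.0, 88.5 and 107 FPKM in the Control libraries. High values therefore occurred in CTX_HCQ 1, Control 2 and Control 3, while Control 1 was lower than 2 of the 3 CTX libraries, and the groups overlapped in every comparison. Its coefficient of variation over the 9 libraries was 72.7%, higher than that of 93.8% of tested genes, for which the median was 25.1%. Bnip3 averaged 29.5 ± 10.5 FPKM in CTX and 73.1 ± 43.6 FPKM in Control (SD, n = 3 each), a difference of -1.10 on the log2 scale (SE 0.65, adjusted p = 0.653, limma). In CTX_HCQ it averaged 40.3 ± 35.3 FPKM, 0.17 above CTX (SE 0.65, adjusted p = 0.980) and -0.92 against Control (SE 0.65, adjusted p = 1, limma). The sign of the CTX_HCQ and CTX difference rested on single libraries, since it was -0.49 without CTX_HCQ 1 and -0.16 without CTX 3. Leaving out Control 1 gave -1.75 for CTX minus Control, and leaving out Control 3 gave -0.70.

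The libraries rich in Bnip3 were also rich in several hypoxia-response transcripts. Ldha, lactate dehydrogenase A, was measured at 215, 119 and 63.4 FPKM in CTX_HCQ, at 152, 121 and 90.9 FPKM in CTX and at 87.7, 209 and 240 FPKM in Control. Pgk1, the glycolytic phosphoglycerate kinase, was at 182, 76.3 and 51.1 FPKM in CTX_HCQ, at 132, 113 and 70.3 FPKM in CTX and at 81.9, 174 and 197 FPKM in Control. Both genes thus had their 3 highest values in the libraries where Bnip3 had its own. Pdk1, the kinase that turns off pyruvate dehydrogenase, had the same 3 highest libraries, at 9.72, 4.93 and 4.81 FPKM in CTX_HCQ, 5.16, 5.52 and 4.61 FPKM in CTX and 4.81, 9.34 and 10.2 FPKM in Control. Of the 18 hypoxia-response genes listed, 6 (33.3%) had their 3 highest values in these libraries, namely Ldha, Pgk1, Pdk1, Vegfa, Pfkfb3 and Bhlhe40, against 1213 of the 14431 tested genes (8.41%). The other 12 did not, among them Hif1a, Car9 and Adm, other hypoxia-linked genes.

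The same libraries were set apart by the 2 tested genes of the ovulatory response. Adamts1, a protease of the ovulating follicle, was at 132, 12.4 and 7.22 FPKM in CTX_HCQ, at 17.2, 11.5 and 6.64 FPKM in CTX and at 21.0, 135 and 203 FPKM in Control. Runx1, a transcription factor that rises in granulosa cells at ovulation, was at 19.0, 3.23 and 5.70 FPKM in CTX_HCQ, at 4.00, 4.99 and 3.25 FPKM in CTX and at 4.74, 24.9 and 27.8 FPKM in Control. Both genes had their 3 highest values where Bnip3 did, but all other members of that list of 9 genes were too low to be tested. Among those low genes, Tnfaip6, Ereg and Btc had the same 3 highest libraries, whereas Ptgs2, Pgr, Has2 and Areg did not. Pgr, at 0.145 to 0.292 FPKM elsewhere, had its 3 lowest values, 0.020 to 0.078 FPKM, in the libraries highest in Bnip3. Cyp17a1, the androgen-producing enzyme of theca cells, picked with its values known, had its 3 lowest values there, at 0.96, 24.2 and 45.4 FPKM in CTX_HCQ, 7.06, 24.7 and 7.65 FPKM in CTX and 16.6, 0.58 and 0.99 FPKM in Control. Other members of the list of 7 theca and steroid genes did not share that pattern. Star, which carries cholesterol into mitochondria, was at 192, 149 and 42.7 FPKM in CTX_HCQ, 151, 179 and 137 FPKM in CTX and 152, 148 and 141 FPKM in Control, and Cyp11a1, the first enzyme of steroid synthesis, was at 1306, 1102 and 479 FPKM in CTX_HCQ, 1670, 1197 and 707 FPKM in CTX and 1319, 1090 and 1333 FPKM in Control. The summed level of 7 endothelial markers was 22.2, 58.1 and 27.5 FPKM in CTX_HCQ, 67.3, 51.0 and 34.2 FPKM in CTX and 54.8, 19.9 and 20.01 FPKM in Control, and so was lowest in the 3 libraries highest in Bnip3. The part that the stage of the follicles or the mix of cells, endothelial cells included, has in the Bnip3 values was not tested.

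**Figure D3:**
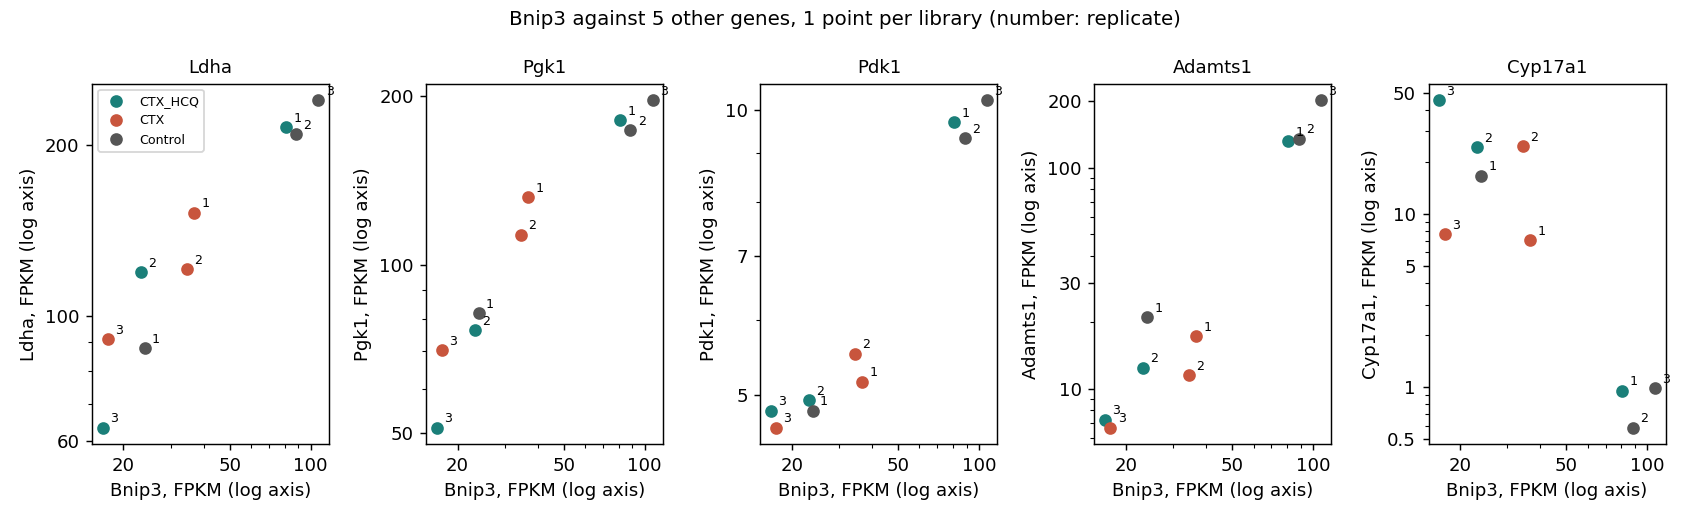
Bnip3 (horizontal) against Ldha, Pgk1, Pdk1, Adamts1 and Cyp17a1 (vertical) in the 9 libraries, all in FPKM on log axes, coloured by group and numbered by replicate. CTX_HCQ 1, Control 2 and Control 3 stand apart at 81.0, 88.5 and 107 FPKM of Bnip3, with the highest values of Ldha, Pgk1, Pdk1 and Adamts1 and with Cyp17a1 between 0.58 and 0.99 FPKM, a pattern that Star and Cyp11a1 of the same theca and steroid list do not share.

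Bnip3l (ENSMUSG00000022051), the paralog of Bnip3 that clears mitochondria from maturing red cells, was at 28.3, 23.4 and 21.4 FPKM in CTX_HCQ, 30.8, 28.9 and 24.0 FPKM in CTX and 27.3, 30.5 and 34.4 FPKM in Control. CTX_HCQ 2 and CTX_HCQ 3 were lower than every other library, and CTX_HCQ 1 lay within the Control values. It averaged 24.4 ± 3.55 FPKM in CTX_HCQ and 30.8 ± 3.58 FPKM in Control (SD, n = 3 each), a difference of -0.33 (SE 0.19, 95% interval -0.75 to 0.09, adjusted p = 1, limma). Against CTX, at 27.9 ± 3.51 FPKM, CTX_HCQ differed by -0.19 (SE 0.19, adjusted p = 0.907), and CTX differed from Control by -0.14 (SE 0.19, adjusted p = 0.819). The highest value was in Control 3, the library in which 5 erythroid markers summed to 3310 FPKM, against 293 to 860 FPKM in the other 8 libraries. CTX_HCQ 2 had the next highest erythroid sum, 860 FPKM, but its Bnip3l was lower than in every library except CTX_HCQ 3. What part red-cell RNA has in the Bnip3l values was not tested. Without Control 3 the difference of CTX_HCQ from Control was -0.25 and that of CTX from Control was -0.06. The 6.37-fold span of Bnip3 between its lowest and highest library compared with 1.61-fold for Bnip3l.

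Pink1 (ENSMUSG00000028756) was at 40.9, 45.1 and 27.7 FPKM in CTX_HCQ, at 45.1, 36.2 and 45.1 FPKM in CTX and at 49.0, 37.0 and 31.9 FPKM in Control. Each group held both high and low libraries. The means were 37.9 ± 9.06, 42.1 ± 5.14 and 39.3 ± 8.82 FPKM in CTX_HCQ, CTX and Control (SD, n = 3 each). CTX differed from Control by 0.11 (SE 0.24, adjusted p = 0.884), and CTX_HCQ from CTX by -0.17 (SE 0.24, adjusted p = 0.928, limma).

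Fundc1 (ENSMUSG00000025040), an X-linked receptor of hypoxia-induced mitophagy, was at 16.0, 14.4 and 13.4 FPKM in CTX_HCQ, at 20.1, 20.02 and 15.5 FPKM in CTX and at 17.7, 15.5 and 14.9 FPKM in Control. CTX 1 and CTX 2 were above every other library, but CTX 3 was below CTX_HCQ 1. Fundc1 averaged 14.6 ± 1.33 FPKM in CTX_HCQ and 18.5 ± 2.67 FPKM in CTX (SD, n = 3 each). The difference of -0.32 (SE 0.17, 95% interval -0.70 to 0.07, adjusted p = 0.906, limma) was the largest of the 10 in that comparison. It stayed between -0.43 and -0.20 under the 22 alternative settings, none of which called it. CTX differed from Control, at 16.0 ± 1.48 FPKM, by 0.19 (SE 0.17, adjusted p = 0.728).

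Of the fusion genes, Mfn2 (ENSMUSG00000029020) was lower in all CTX libraries than in any Control library. Its values were 15.4, 10.2 and 10.1 FPKM in CTX_HCQ, 11.7, 11.5 and 8.77 FPKM in CTX and 12.7, 14.7 and 13.4 FPKM in Control. The highest library of all 9 was CTX_HCQ 1, so CTX_HCQ overlapped both other groups. Its 3 highest values lay in CTX_HCQ 1, Control 2 and Control 3, the libraries highest in Bnip3, as did those of 8.41% of tested genes. What part this shared pattern has in the Mfn2 difference was not tested. CTX averaged 10.6 ± 1.63 FPKM and Control 13.6 ± 0.970 FPKM (SD, n = 3 each), a difference of -0.33 (SE 0.20, 95% interval -0.78 to 0.11, adjusted p = 0.655, limma). Such separation of the groups was common, being seen in 19.7% of tested genes for CTX against Control, 8.72% higher and 11% lower, and in 2 of the 10 genes, Mfn2 and Fis1, a share close to that of all tested genes. For CTX_HCQ against CTX, 8.02% of tested genes did not overlap (3.45% higher and 4.57% lower), for CTX_HCQ against Control 6.31% (3.25% higher and 3.06% lower), and in both 0 of the 10.

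Mfn1 (ENSMUSG00000027668) was at 13.2, 15.6 and 14.0 FPKM in CTX_HCQ, at 13.3, 12.2 and 11.5 FPKM in CTX and at 13.3, 13.2 and 11.99 FPKM in Control. With a coefficient of variation of 9.11% it was among the steadiest genes, since only 1.75% of tested genes varied less. It averaged 14.3 ± 1.19 FPKM in CTX_HCQ and 12.4 ± 0.907 FPKM in CTX (SD, n = 3 each), which differed by 0.19 (SE 0.15, adjusted p = 0.906), and CTX differed from Control by -0.051 (SE 0.15, 95% interval -0.39 to 0.29, adjusted p = 0.920, limma). Opa1 (ENSMUSG00000038084) was at 12.8, 9.20 and 11.5 FPKM in CTX_HCQ, at 11.6, 12.6 and 7.81 FPKM in CTX and at 12.96, 12.2 and 11.4 FPKM in Control. Its lowest value, in CTX 3, belonged to the library with the highest share of mitochondrial-genome transcripts. CTX averaged 10.6 ± 2.51 FPKM and Control 12.2 ± 0.778 FPKM of Opa1 (SD, n = 3 each), a difference of -0.20 (SE 0.20, adjusted p = 0.751, limma) that was -0.012 without CTX 3.

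Fis1 (ENSMUSG00000019054), a tail-anchored outer-membrane protein named for the fission role of its yeast counterpart, was higher in all CTX libraries than in any Control library. It was at 33.01, 69.2 and 23.7 FPKM in CTX_HCQ, at 55.9, 37.6 and 47.4 FPKM in CTX and at 34.9, 30.7 and 33.7 FPKM in Control. Both the highest and the lowest value of the 9 lay in CTX_HCQ. CTX averaged 47.0 ± 9.13 FPKM and Control 33.1 ± 2.15 FPKM (SD, n = 3 each), a difference of 0.48 (SE 0.34, 95% interval -0.28 to 1.23, adjusted p = 0.685, limma). CTX_HCQ averaged 42.0 ± 24.0 FPKM, which differed from CTX by -0.28 (SE 0.34, adjusted p = 0.916) and from Control by 0.19 (SE 0.34, adjusted p = 1). Without CTX_HCQ 2 the difference from Control was -0.23, and without CTX_HCQ 3 the difference from CTX was 0.044.

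The 3 libraries highest in Fis1, namely CTX_HCQ 2, CTX 1 and CTX 3, were those in which short genes had relatively higher FPKM. The slope of log2 FPKM on log2 exon length, over 14431 genes and relative to the mean of all libraries, was -0.0530, -0.0353 and -0.0743 in these libraries and above 0 in the other 6. Fis1 had the shortest exon length of the 10, at 1714 bases, and Opa1 the longest, at 7875 bases. With the length trend removed, the Fis1 difference of CTX from Control was 0.32, that of Opa1 was -0.07 and that of Mfn1 was 0.036.

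Dnm1l (ENSMUSG00000022789) was at 16.8, 18.0 and 22.5 FPKM in CTX_HCQ, at 19.0, 18.1 and 17.7 FPKM in CTX and at 15.7, 16.2 and 18.5 FPKM in Control. Apart from CTX_HCQ 3 the libraries lay close together, and the coefficient of variation was 10.95%. The means were 19.1 ± 3.02, 18.2 ± 0.644 and 16.8 ± 1.46 FPKM in CTX_HCQ, CTX and Control (SD, n = 3 each). CTX_HCQ differed from Control by 0.17 (SE 0.17, 95% interval -0.21 to 0.54, adjusted p = 1), and CTX from Control by 0.11 (SE 0.17, adjusted p = 0.831, limma).

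Vdac1 (ENSMUSG00000020402), the main outer-membrane channel for metabolites, was at 106, 98.6 and 65.2 FPKM in CTX_HCQ, at 116, 92.7 and 81.5 FPKM in CTX and at 88.0, 103 and 108 FPKM in Control. Only CTX_HCQ 3 stood well below the rest. The means were 90.1 ± 21.9, 96.7 ± 17.6 and 99.4 ± 10.2 FPKM in CTX_HCQ, CTX and Control (SD, n = 3 each), and CTX differed from Control by -0.050 (SE 0.25, 95% interval -0.61 to 0.51, adjusted p = 0.957, limma). Vdac1 made up 53.6% to 64.2% of the summed FPKM of Vdac1, Vdac2 and Vdac3, Vdac2 22.9% to 26.5% and Vdac3 12.9% to 21.3%. In CTX_HCQ 3 the deviation of Vdac1 from the mean of all libraries was -0.52 on the log2 scale. The median deviation there was -0.69 over 11 transcripts chosen as marks of mitochondrial mass, such as Cs and Cox4i1. Not all 11 were low, since Nrf1 was at 4.37 FPKM against a mean of 4.36 FPKM. The median deviation of that library was also -0.90 for theca and steroid markers and -0.57 for stroma markers, but 0.25 for granulosa markers. What lies behind the low values of CTX_HCQ 3 was not tested.

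**Figure D4:**
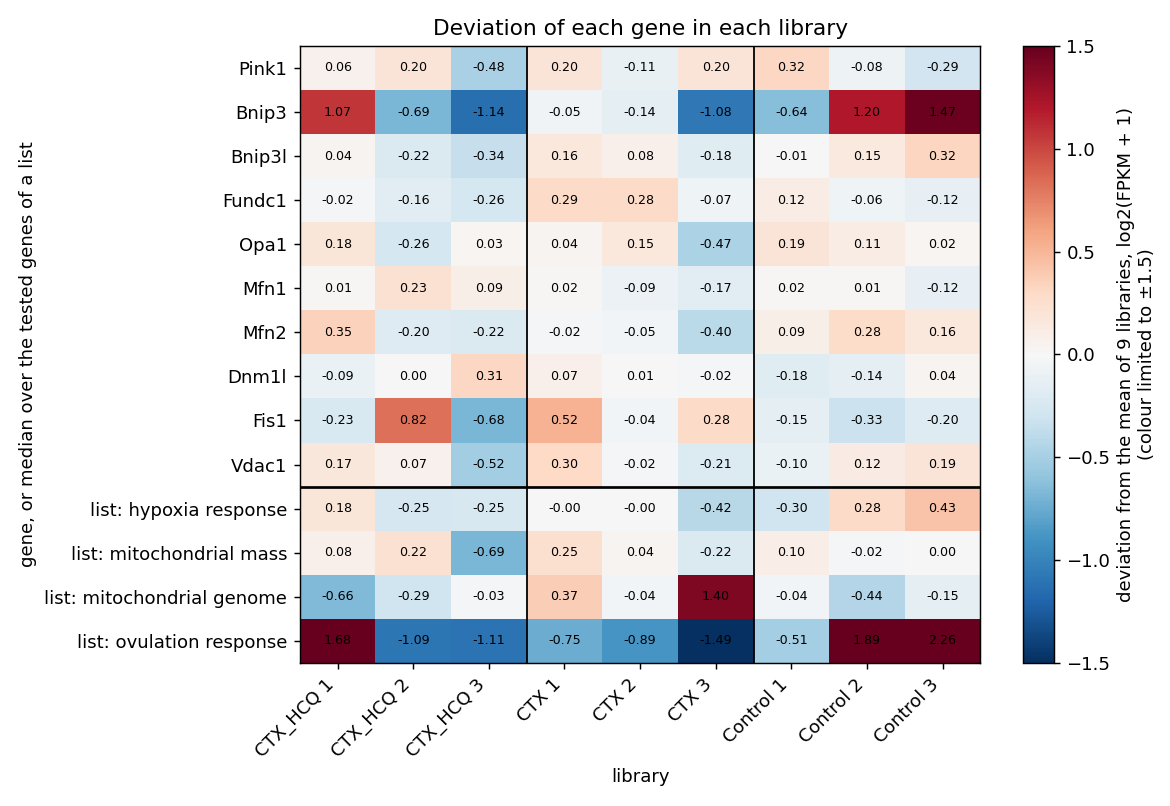
Deviation of each of the 10 genes, and of the median over the tested genes of 4 lists, from the mean of the 9 libraries on the log2(FPKM + 1) scale, with libraries of CTX_HCQ, CTX and Control from left to right. Bnip3 is above its mean by 1.07 to 1.47 in CTX_HCQ 1, Control 2 and Control 3, and mitochondrial-genome transcripts by 1.40 in CTX 3.

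Ratios between pairs of genes were taken within each library, where the scaling of that library cancels but a trend with gene length does not. Mfn2 to Mfn1 was 1.17, 0.659 and 0.720 in CTX_HCQ, 0.878, 0.939 and 0.761 in CTX and 0.960, 1.11 and 1.12 in Control. CTX lay below Control without overlap, at 0.859 ± 0.0905 against 1.06 ± 0.0879 (SD, n = 3 each), and CTX_HCQ 1 had the highest ratio of all. The 3 highest ratios were in CTX_HCQ 1, Control 2 and Control 3, the libraries highest in Bnip3. Fis1 to Mfn2 was 2.14, 6.75 and 2.35 in CTX_HCQ, 4.78, 3.28 and 5.41 in CTX and 2.74, 2.10 and 2.51 in Control. Here CTX lay above Control without overlap, at 4.49 ± 1.09 against 2.45 ± 0.326 (SD, n = 3 each), which restates the 2 genes that separated these groups. The 3 highest of these ratios were in CTX_HCQ 2, CTX 3 and CTX 1, the libraries in which short genes had relatively higher FPKM. The exon length was 1714 bases for Fis1 and 5194 bases for Mfn2. The ratios Dnm1l to Opa1, Bnip3l to Bnip3 and Vdac1 to Vdac2 overlapped between all groups, running from 1.21 to 2.27, from 0.322 to 1.37 and from 2.13 to 2.80. No test was made on the ratios.

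**Figure D5:**
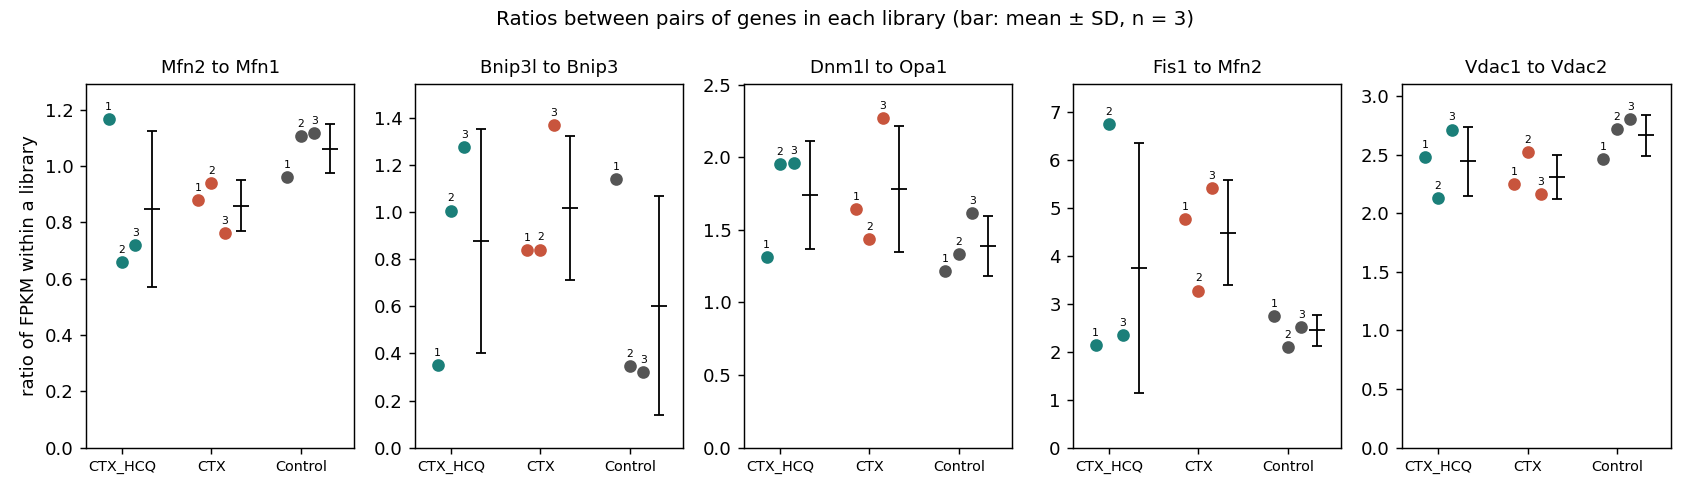
Ratio of FPKM within each library for 5 pairs of genes, in CTX_HCQ, CTX and Control from left to right, with points numbered by replicate and bars for the mean ± SD of 3 libraries. Mfn2 to Mfn1 lies lower and Fis1 to Mfn2 higher in the CTX libraries than in the Control libraries, whereas CTX_HCQ spans both.

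How the genes varied with one another was examined over all 45 pairs on the log2(FPKM + 1) scale. The 9 pairs with Bnip3 were taken over the 6 libraries outside its high cluster, and the other 36 pairs over 9 libraries. Those 6 libraries were picked by the Bnip3 values themselves, a departure from the planned use of all 9. The Bnip3 pairs therefore describe those 6 libraries only. After Benjamini-Hochberg adjustment over the 45 pairs, 0 passed 0.05 (lowest adjusted p = 0.188, two-sided exact permutation test), and 8 did so before adjustment. The pair with the lowest p was Bnip3l with Vdac1, with r = 0.80 (exact permutation p = 0.00847) and rho = 0.82 (exact permutation p = 0.0108). Its r was 0.61 without the 2 libraries farthest from the median of Bnip3l. Pairs over 6 and over 9 libraries cannot be ranked together by r, and the Bnip3 pairs over all 9 are not given here. Opa1 with Mfn2 gave r = 0.77 (exact permutation p = 0.00935) and rho = 0.63 (exact permutation p = 0.0760), and 0.43 without the 2 libraries farthest in Opa1. Within the 6 libraries, Bnip3 and its paralog Bnip3l gave r = 0.92 (exact permutation p = 0.0125) and rho = 0.94 (exact permutation p = 0.0167), and 0.71 without the 2 farthest. The only negative pair of the 8, Pink1 with Dnm1l, rested on the 2 libraries farthest in Pink1, since r was -0.67 (exact permutation p = 0.0457, rho = -0.53 with exact permutation p = 0.148) with them and -0.03 without them. The mitofusins did not track each other, with r = -0.01 (exact permutation p = 0.985) and rho = -0.12 (exact permutation p = 0.776) over 9 libraries.

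Among all tested genes, the transcripts whose pattern over the 9 libraries was most like each gene are given as a description, with Pearson's r and no test. Bnip3 was most like Ywhah (r = 0.99) and Smarca1 (r = 0.98), both highest in CTX_HCQ 1, Control 2 and Control 3. Fis1 was most like Ndufa2, a subunit of respiratory complex I, and Srp9, a subunit of the signal recognition particle (r = 0.99 each). Ndufa2 was at 78.8, 225 and 43.9 FPKM in CTX_HCQ, at 173, 97.0 and 152 FPKM in CTX and at 95.1, 72.5 and 81.4 FPKM in Control, with the highest and the lowest library both in CTX_HCQ, as for Fis1. Opa1 was most like Cep120 and the autophagy kinase gene Ulk2 (r = 0.98 each), Mfn2 like D6Wsu163e and Clstn3 (r = 0.98 each), and Vdac1 like Hnrnpk and the import subunit gene Timm17a (r = 0.98 each). For Bnip3l the genes were Tspan5 and C1qtnf6 (r = 0.97 each), for Pink1 Cdh15 (r = 0.97) and C1qtnf12 (r = 0.95), and for Dnm1l Zfp738 (r = 0.97) and Txlng (r = 0.94). Fundc1 was most like Tollip (r = 0.95) and Srxn1 (r = 0.94), and Mfn1 like Tmbim1 (r = 0.90) and Wrap73 (r = 0.89). Each r is the highest or the next highest among these candidates, which were fewer than the 14144 tested genes with a symbol.

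Wider lists of the same machinery also held 0 genes past the threshold in all 3 comparisons. Of the 12 tested genes for fission and its adaptors, 3 were higher and 9 lower in CTX than in Control, with a median difference of -0.13 against -0.0045 for all tested genes, and 0 had an unadjusted p under 0.05. Mief2, an adaptor that recruits the fission GTPase, had the lowest p among those lower in CTX, at 11.7 ± 0.911 FPKM in CTX and 17.5 ± 4.34 FPKM in Control (SD, n = 3 each), a difference of -0.52 (SE 0.35). Spire1, an actin nucleator at mitochondria, had the lowest p among those higher in CTX_HCQ than in CTX, by 0.31 (SE 0.17). The 7 genes of mitochondrial transport had medians of -0.082 for CTX minus Control and 0.078 for CTX_HCQ minus CTX.

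Among 19 genes for fusion and inner-membrane shape, Apoo, a subunit of the MICOS complex at cristae junctions, was furthest apart. It was at 11.3, 14.9 and 6.96 FPKM in CTX_HCQ, at 24.3, 17.0 and 18.3 FPKM in CTX and at 15.4, 11.9 and 10 FPKM in Control. All CTX libraries stood above all others. The difference was 0.64 for CTX minus Control (SE 0.27, adjusted p = 0.639) and -0.83 for CTX_HCQ minus CTX (SE 0.27, adjusted p = 0.710, limma), 2 differences that share the CTX libraries. Another MICOS subunit, Micos13, was at 28.0, 36.0 and 18.0 FPKM in CTX_HCQ, at 44.2, 41.1 and 40.1 FPKM in CTX and at 33.2, 24.4 and 32.8 FPKM in Control, with a difference of -0.65 for CTX_HCQ minus CTX (SE 0.25). These were the 2 genes of the list with an unadjusted p under 0.05 in that comparison, against 5.44% of all tested genes. Without overlap, 5 of the 19 were higher and 3 lower in CTX than in Control, against 8.72% and 11% of all tested genes. For CTX_HCQ against CTX, 2 were higher and 3 lower without overlap, against 3.45% and 4.57%. No test was made on these counts. Over the whole list, 12 of 19 genes were higher in CTX than in Control (median 0.063) and 13 of 19 were lower in CTX_HCQ than in CTX (median -0.17, against 0.013 for all tested genes).

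Of 26 tested mitophagy genes beyond the 10, 12 were higher and 14 lower in CTX than in Control (median -0.017), and in CTX_HCQ against Control 7 were higher and 19 lower (median -0.10, against -0.011 for all tested genes). Bcl2l13, a receptor related to yeast Atg32 in function, was at 14.0, 5.83 and 9.97 FPKM in CTX_HCQ, at 7.04, 9.20 and 5.97 FPKM in CTX and at 9.84, 12.8 and 14.0 FPKM in Control. It was lower in CTX than in Control without overlap, with a difference of -0.66 (SE 0.28, adjusted p = 0.639, limma). In that comparison it was the only gene of the list with an unadjusted p under 0.05, against 7.8% of all tested genes. Its 3 highest values were in CTX_HCQ 1, Control 2 and Control 3, the libraries highest in Bnip3. Tbk1, the kinase that phosphorylates autophagy receptors, had the lowest p among those higher in CTX_HCQ than in Control, by 0.36 (SE 0.18). The receptor gene Sqstm1, picked with its values known, averaged 148 ± 55.1 FPKM in CTX_HCQ, 153 ± 6.97 FPKM in CTX and 144 ± 25.3 FPKM in Control (SD, n = 3 each).

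Of 17 tested genes for outer-membrane channels and import, Hk1, a hexokinase that docks on the Vdac channel, was at 10.9, 5.71 and 5.30 FPKM in CTX_HCQ, at 5.76, 6.04 and 6.42 FPKM in CTX and at 7.06, 10.6 and 11.7 FPKM in Control. Its difference of -0.58 for CTX minus Control (SE 0.26, adjusted p = 0.640, limma) came with the same high libraries as Bnip3. Hk2, another hexokinase of the list, was also highest in these libraries, at 22.1 FPKM in CTX_HCQ 1, 19.2 in Control 2 and 21.8 in Control 3. Its difference for CTX minus Control was -0.86 (SE 0.55, adjusted p = 0.665, limma), with overlapping groups. In the hypoxia-response list, 15 of 18 genes were lower in CTX than in Control (median -0.33, against -0.0045 for all tested genes). Against Control, 15 of 18 were lower in CTX_HCQ (median -0.27, against -0.011), and these 2 comparisons share the Control libraries. Against CTX, 10 of 18 were higher in CTX_HCQ (median 0.084, against 0.013). The list's median deviation from the mean of all libraries was -0.30, 0.28 and 0.43 in Control 1, 2 and 3. It was -0.0041, -0.0034 and -0.42 in CTX 1, 2 and 3. Control 1 thus lay below CTX 1 and CTX 2, and the high values were in Control 2 and Control 3. The 11 tested genes of mitochondrial mass had medians of 0.052 for CTX minus Control and -0.12 for CTX_HCQ minus CTX. For the 10 genes themselves the medians were -0.051 for CTX minus Control, -0.033 for CTX_HCQ minus CTX and -0.12 for CTX_HCQ minus Control.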

How the data were processed

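Polyadenylated RNA of granulosa cells was sequenced, per the labels' protocols. The authors deposited 1 table of FPKM per gene. The submitters' processing notes name DESeq2 1.20.0, featureCounts 1.5.0-p3, HISAT2 2.0.5, fastp 0.23.2 and build GRCm39 (mm39) but no roles or settings. No source used here states the strandedness, so reads of overlapping or antisense genes cannot be told apart. Symbols and summed exon lengths came from GENCODE M21 and promoter windows from RefSeq on GRCm38.p6. Symbols were found for 52073 of 56748 identifiers and 14144 of 14431 tested genes. Where a listed symbol was absent, an older synonym was used.

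The 10 genes, the wider lists and the marker lists were chosen with earlier results of these data known. Each list is described with up to 2 genes per direction and comparison of smallest p, apart from genes said to have been picked with their values known, and from markers and hypoxia-response or ovulation genes, named to describe the libraries.

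Genes that reached 1 FPKM in 3 or more libraries were tested as log2(FPKM + 1) in limma 3.58.1 (R 4.3.3), with 1 mean per group over all 9 libraries, a variance trend, and Benjamini-Hochberg adjustment at 0.05. A difference on this scale understates the change of low genes. Whole reads, within 0.02 of a read, were recovered for 14430 of the 14431 tested genes, for 13573 with the annotation's length, and were fitted with limma voom as an alternative. Correlations used two-sided exact permutation tests. Alternatives covered the pseudocount, the filter, scaling, length, library weights, the samples fitted, the replicate number as a block, and each library left out.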

Additional observations from a re-analysis of the deposited data

How the results depend on the processing

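All alternatives were planned with earlier results of these data known. None of the 22 alternatives per comparison called any of the 10 genes. Over all tested genes, library weights in limma called 648 for CTX minus Control, 1 for CTX_HCQ minus CTX and 1 for CTX_HCQ minus Control, and omitting Control 1 called 13 and 10 in the first and second of these, against 0 in the reported fits. The cause was not tested. Over single omitted libraries, calls ranged from 0 to 13, from 0 to 10 and stayed at 0, and the median difference of the 10 genes ranged from -0.14 to 0.027 for CTX minus Control, from -0.21 (without CTX_HCQ 1) to 0.049 for CTX_HCQ minus CTX, and from -0.21 to -0.0097 for CTX_HCQ minus Control, where library weights gave 0.031. Scaling to genes outside the mitochondrial genome moved the median of all tested genes in CTX_HCQ minus CTX to 0.11, against 0.013 as reported. With limma voom, which used the totals of recovered reads as library sizes, that median was 0.064.

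Of the 30 differences of the 10 genes, 14 kept their sign throughout. With the length trend removed, with or without the replicate block, Mfn1 became 0.036 in CTX minus Control and Opa1 -0.041 in CTX_HCQ minus CTX. In CTX_HCQ minus CTX, Vdac1 became 0.017 under quantile normalization and 0.014 with library weights, which also gave Dnm1l -0.090. For CTX_HCQ minus Control, library weights gave Pink1 0.16, Fundc1 0.020, Opa1 0.041 and Mfn2 0.040. Leaving out libraries gave both signs for some genes. For CTX minus Control these were Pink1, from -0.024 (without Control 3) to 0.28, and Vdac1, from -0.19 to 0.065 (without CTX 3). For CTX_HCQ minus CTX they were Pink1 (-0.31 to 0.087), Bnip3 (-0.49 to 0.61), Opa1 (-0.14 to 0.20), Mfn2 (-0.050 to 0.23), Dnm1l (-0.087 to 0.13), Fis1 (-0.71 to 0.060) and Vdac1 (-0.25 to 0.097). For CTX_HCQ minus Control they were Pink1 (-0.19 to 0.15), Fis1 (-0.23 to 0.52) and Vdac1 (-0.30 to 0.047).

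Genes at an unadjusted p under 0.05 for CTX minus Control numbered 1126, against 3935 with library weights, 2067 with only both groups fitted, 1906 without a filter, 580 at a mean FPKM of at least 5, 1693 without CTX_HCQ 2, 678 without CTX 1, 681 without CTX 3, 424 without Control 2 and 468 without Control 3. For CTX_HCQ minus CTX they numbered 785, against 2832 with library weights, 2440 without CTX_HCQ 2, 1713 without a filter, 370 at a mean of at least 5 and 483 without CTX 1. For CTX_HCQ minus Control they numbered 312, against 1079 without CTX_HCQ 1, 926 without a filter, 905 with library weights, 560 without CTX 3 and CTX_HCQ 3, 480 without Control 1, 193 without Control 3, 157 without Control 2 and 146 at a mean of at least 5. The labels state no pairing of libraries by replicate number. Correlations of same-numbered deviations from the group means ran from -0.46 to 0.14, which with 3 libraries per group cannot settle whether numbers were paired. With the replicate block, 847, 668 and 293 genes had an unadjusted p under 0.05 in the 3 comparisons, and 0 were called. The lowest read count of the 10 genes in any library was 484, and no fit was made at another depth.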
